A study of Saccharomyces cerevisiae x Saccharomyces paradoxus and Saccharomyces cerevisiae and Saccharomyces paradoxus with 10 samples.

Results

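IME1, IME2, IME4, RME1, UME6 and NDT80 control the decision of a budding yeast cell to leave vegetative growth and enter meiosis. They were chosen by name from the deposited gene table, which holds all 6 among its 4637 genes, and all 6 passed the filter on low coverage that left 4544 genes for testing. Coverage by mRNA (poly-A selected) and by ribosome footprints (RPF, pieces of message kept from nuclease by a ribosome) was measured for the S. cerevisiae and the S. paradoxus version of each gene. The question of the design is which differences between the species follow the allele, as seen with both alleles in 1 hybrid cell (cis), and which depend on the cell around it (trans).

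The hybrid was a diploid from a cross of S. cerevisiae BY4176, which carries MAT-alpha, lys2 and ura::KAN, with S. paradoxus CBS432, which carries MATa and ura::HYG. The S. cerevisiae parent, BY4176, was labelled haploid and the S. paradoxus parent, CBS432, was labelled diploid, although the description of a library of mixed parental mRNA speaks of haploid strains. The parents therefore differed in species, in ploidy and, as labelled, in the mating type information they carried, and these cannot be told apart in the comparison of the parents. The hybrid also differed from the S. cerevisiae parent in ploidy, in mating type information and in carrying the S. paradoxus genome. These cannot be told apart in the S. cerevisiae differences between hybrid and parent, and the trans part carries the same limit. All cultures were grown from single colonies for at least 16 hours in YPD, a rich medium with glucose, at 30 °C and were collected in log phase at an OD600 of 0.5 to 0.7. No group was starved or induced to sporulate, so all levels are those of growing cells. Both kinds of library had 2 replicates in the hybrid and 2 in the parents, with a value per replicate for both species, which makes 16 columns. For parental mRNA the labels give an S. cerevisiae library, an S. paradoxus library and a mixed library. A species ratio there can therefore be a ratio between separate libraries. The labels do not say whether the 2 replicates came from separate cultures, so the p-values measure only a spread between libraries that can be technical.

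Yeast enters meiosis when nutrients run out and when the cell carries both the a and the alpha mating type information. In such a/alpha cells the a1 and alpha2 proteins form a repressor that shuts off haploid-specific genes, RME1 among them. Rme1 is a DNA-binding protein that keeps IME1 off in haploid cells, by driving transcription of the noncoding RNA IRT1 through the IME1 promoter. Ime1 is the activator that starts the programme, and it works through Ume6, a DNA-binding protein that in growing cells represses early meiotic genes at a site called URS1. Ime2 is a protein kinase made early in the programme, Ime4 is the methyltransferase that puts N6-methyladenosine on mRNA, and Ndt80 is the activator of the middle meiotic genes. IME4 has an antisense RNA, RME2, known to be made in haploid cells and shut off by a1-alpha2 in a/alpha cells.

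The letters of the a1-alpha2 operator were searched beside each gene, because 2 of the regulators are known to answer to this repressor. The search used TGT, any 7 bases and TACATCA on both strands of the S. cerevisiae R64 genome, in the 600 bases before the start codon and the 300 bases after the stop codon. They were found before RME1 at chrVII:584279-584295, with the first base 403 bases before the start codon and within the annotated open reading frame YGR045C. They were also found after IME4 at chrVII:144207-144223, 159 bases after the stop codon, which is 86 bases before the annotated start of RME2. The other members had no match in either window. Across 6002 protein-coding genes, 23 (0.383%) had a match before the start codon and 7 (0.117%) had one after the stop codon. A match of letters is a description and does not show that a protein is bound. Both matches are shown 5′ to 3′ on the strand of the gene with 12 bases on each side, and the operator is in capitals.

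RME1 upstream: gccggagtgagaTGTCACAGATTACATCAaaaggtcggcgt

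IME4 downstream: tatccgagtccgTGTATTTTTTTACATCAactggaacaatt

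The core of URS1, GGCGGC, was searched in the same windows on both strands, since Ume6 acts there. It stood before 682 of the 6002 genes (11.4%) and before 4 of the members. IME2 had 2 matches before its start codon, at 550 bases (chrX:220840-220845) and 455 bases (chrX:220935-220940), which are shown with the core in capitals. UME6 itself also had 2, at 436 and at 142 bases before its start codon, the latter on the opposite strand. IME4 had 1 match at 232 bases and RME1 had 1 at 418 bases, on the opposite strand. IME1 and NDT80 had none in the 600 bases. In the 300 bases after the stop codon 241 genes (4.02%) had a match, of the members only IME2, at 240 bases.

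IME2 upstream, farther: aatttatgttacGGCGGCtatttgagtttt

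IME2 upstream, nearer: gcgcgagacttcGGCGGCaaaaagccacag

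**Figure D1:**
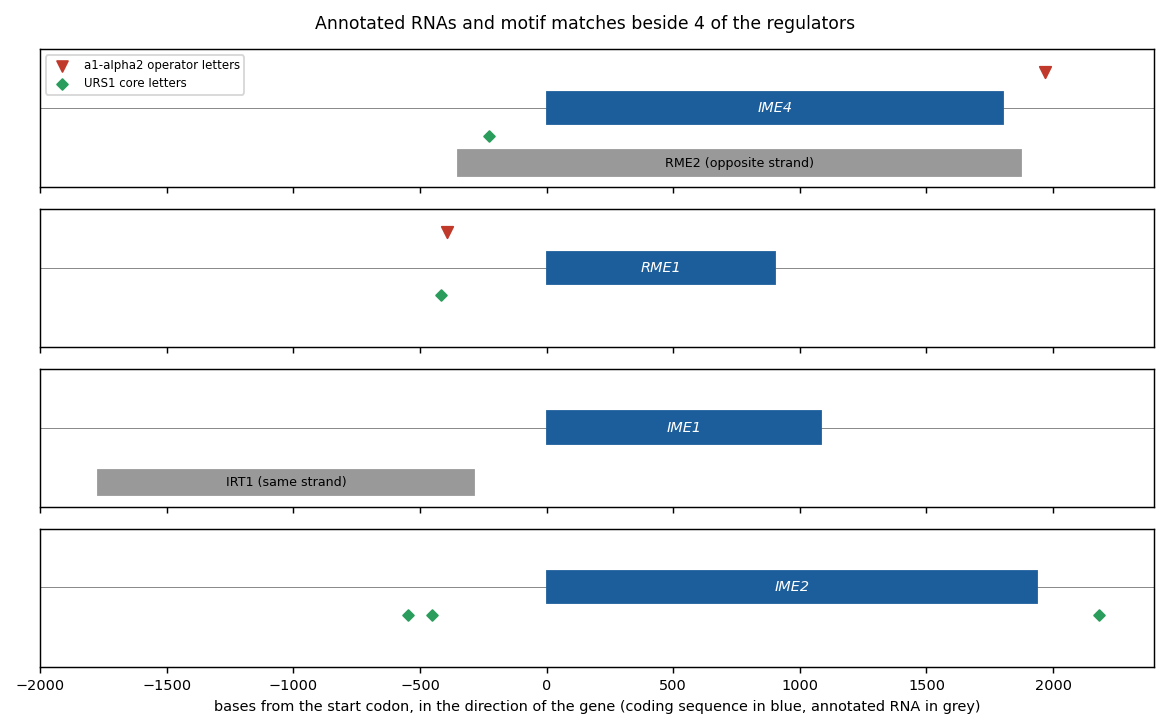
Annotated RNAs and motif matches beside IME4, RME1, IME1 and IME2 in the S. cerevisiae R64 annotation, drawn as bases from the start codon in the direction of each gene. Blue bars are coding sequences, grey bars are annotated noncoding RNAs, red triangles are operator letters and green diamonds are URS1 core letters. RME2 runs over the whole of IME4 on the opposite strand, with the operator letters just before its start, and IRT1 ends 284 bases before the IME1 start codon.

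IME4 lies at chrVII:142246-144048 on the plus strand, and all 1803 bases of its coding sequence are overlapped by RME2 (chrVII:141898-144120, minus strand). Whether the authors counted reads by strand is not given in the sources used here, so sense and antisense coverage of IME4 cannot be told apart. RME1 lies at chrVII:582990-583892 and IME1 at chrX:604569-605651, both on the minus strand, and IRT1 (chrX:605936-607424) is on the same strand as IME1. IME2 lies at chrX:221390-223327 and NDT80 at chrVIII:356561-358444, both on the plus strand, and UME6 at chrIV:865012-867522 on the minus strand. IRT1 and RME2 have no rows of their own among the values used here.

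Each value below is the authors' base-level coverage of a gene, a signal and not a read count, expressed here in ppm of the column's total over all genes. Column totals ran from 60.6 to 167 Mb, and the number of reads behind each value is unknown. Differences are on the scale log2(ppm + 0.5), which understates those of weakly covered genes, and errors are standard errors of a limma fit with n = 2 per group. The labelled cell types were checked with marker genes chosen from general knowledge. Of 11 haploid-specific genes 10 were in the table, and their summed mRNA coverage was 2199 to 2352 ppm in the S. cerevisiae parent, 187 ppm for the S. cerevisiae alleles of the hybrid, 283 to 292 ppm for its S. paradoxus alleles and 331 to 360 ppm in the S. paradoxus parent. The 4 alpha-specific genes in the table summed to 3089 to 3202 ppm in the S. cerevisiae parent and to at most 93.5 ppm in the other mRNA columns, with MF(ALPHA)2 listed at 0 in both S. cerevisiae columns of hybrid mRNA. The 4 a-specific genes summed to 54.6 to 97.2 ppm in all mRNA columns.

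IME4 and RME1 were mirror images of each other in the S. cerevisiae parent. In the S. cerevisiae mRNA columns IME4 rose and RME1 and NDT80 fell from parent to hybrid, which is 3 of 6 members against 50.3% of all genes tested. In S. cerevisiae RPF the same comparison called 2 members, IME4 higher and RME1 lower, against 18.2% of all genes. The S. paradoxus alleles called 1 member in mRNA, UME6, which was higher in the hybrid, against 30.1% of genes, and none in RPF, against 12.5%. At an unadjusted p under 0.05 in limma, S. paradoxus IME1 alone stood lower in the RPF of the hybrid (-1.52 ± 0.59, adjusted p = 0.10), and a shared spread called it (adjusted p = 0.0485). Its hybrid footprints were close to or below the amount added, so that size depends on it, and was -1.08 with 1 ppm added (adjusted p = 0.170). These shares of 6 genes are read against the background only as counts; the plot of hybrid minus parent shows the sizes, which for S. cerevisiae IME4 and RME1 were above 5.9 in both mRNA and RPF and for all others below 2.

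**Figure D2:**
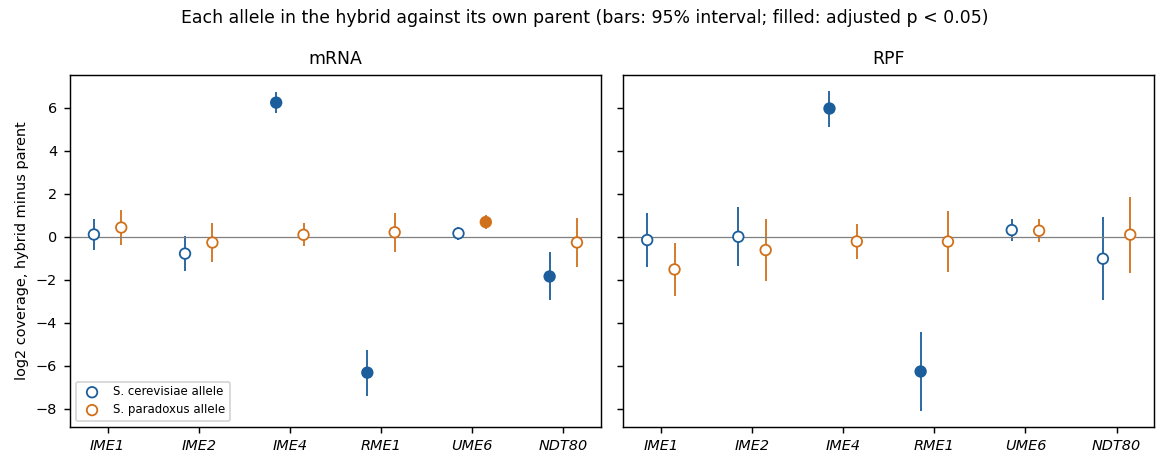
Difference in log2 coverage between each allele in the hybrid and the same species' parent, for mRNA (left) and RPF (right), with 95% intervals. Filled symbols have an adjusted p under 0.05. S. cerevisiae IME4 stands near +6 and S. cerevisiae RME1 near -6 in both panels, and their S. paradoxus alleles stand near 0.

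IME4 mRNA coverage in the S. cerevisiae parent was 0.519 and 0.595 ppm. In the hybrid the S. cerevisiae allele had 78.3 and 80.5 ppm and the S. paradoxus allele 95.7 and 107 ppm. The S. paradoxus parent had 91.6 and 98 ppm. The S. cerevisiae parent was therefore the only strain with next to no IME4 mRNA, far below every other mRNA column, and per kb of unmasked sequence a single tested gene of 4544 (0.0220%) stood lower there. In the same libraries the summed haploid-specific markers were high, as given above, and their part in the result was not tested; in bulk cultures, fewer cells with a transcript and less transcript per cell cannot be told apart.

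The S. cerevisiae allele of IME4 was higher in hybrid mRNA than in its parent by 6.24 ± 0.23 on the log2 scale (limma, adjusted p = 7.32e-14), a 75.6-fold difference after the addition of 0.5 ppm. Since the parental level is close to that added amount, the size depends on it, and the difference ran from 5.65 to 6.92 over the alternatives tried. The S. paradoxus allele of IME4 differed by 0.09 ± 0.25 between hybrid and parent (adjusted p = 0.812, 95% interval -0.43 to 0.62).

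Footprints of IME4 followed its mRNA. S. cerevisiae IME4 is listed at 0 in both parental RPF replicates, against 28.3 and 33.4 ppm in the hybrid. The S. paradoxus allele had 37.6 and 28.9 ppm in hybrid RPF and 32.8 and 44.9 ppm in its parent. The rise of the S. cerevisiae allele in RPF was called (5.97 ± 0.40, adjusted p = 1.59e-09), and no fold is given because the parental columns are at 0.

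Between the alleles of the hybrid the IME4 difference was not called, although S. paradoxus was higher in each mRNA replicate. The S. cerevisiae over S. paradoxus difference in the hybrid was -0.35 ± 0.20 in mRNA (adjusted p = 0.182, 95% interval -0.77 to 0.07) and -0.10 ± 0.43 in RPF (adjusted p = 0.917, 95% interval -1.0 to 0.81). Between the parents it was -6.49 ± 0.22 in mRNA (adjusted p = 2.13e-14). The parental minus the hybrid difference, the trans term, was -6.15 ± 0.30 in mRNA (adjusted p = 1.54e-11) and -6.18 ± 0.58 in RPF (adjusted p = 7.19e-07).

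RME1 showed the opposite pattern. Its mRNA coverage was 190.5 and 192 ppm in the S. cerevisiae parent, but 4.76 and 0.594 ppm for the same allele in the hybrid. The S. paradoxus gene had 1.92 and 2.68 ppm in its parent and 2.32 and 3.16 ppm in the hybrid. All 6 mRNA columns outside the S. cerevisiae parent were thus below 5 ppm, and the groups did not overlap with it. Per kb, RME1 stood above 70.8% of tested genes in the mRNA of the S. cerevisiae parent and above at most 0.880% of them in the other mRNA groups.

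S. cerevisiae RME1 fell by 6.32 ± 0.51 on the log2 scale from parent to hybrid (limma, adjusted p = 9.40e-09), a 79.9-fold difference after the addition of 0.5 ppm. The replicates of the hybrid differ widely in this weakly covered allele, and the difference ran from -7.45 to -5.19 over the alternatives, the extremes being those without hybrid mRNA replicate 1 and without hybrid mRNA replicate 2. The S. paradoxus gene differed by 0.21 ± 0.43 (adjusted p = 0.747, 95% interval -0.69 to 1.11).

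Footprints of RME1 were at 117 and 98.4 ppm in the S. cerevisiae parent and at 1.53 and 0.462 ppm for that allele in the hybrid. The S. paradoxus gene had 0.642 and 0.543 ppm in its parent, and 1.25 ppm in hybrid RPF replicate 1, while it is listed at 0 in replicate 2. Only the S. cerevisiae parent had RME1 footprints in quantity. RME1 passed the filter on mean coverage only through the columns of this parent, the group with which the others are compared. The S. cerevisiae allele fell by 6.27 ± 0.88 in RPF (adjusted p = 4.22e-05).

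The trans term of RME1 was 6.53 ± 0.66 in mRNA (adjusted p = 4.18e-07) and 6.04 ± 1.30 in RPF (adjusted p = 0.00488). The call in RPF rests on both parental RPF replicates, with an adjusted p of 0.0517 without replicate 1 and 0.0522 without replicate 2. Between the alleles in the hybrid the mRNA difference was -0.42 ± 0.45 (adjusted p = 0.488), with values on either side of 0 in the 2 replicates, so that no allele order could be read at this coverage. Without hybrid mRNA replicate 1 that difference was -1.74 and passed the threshold (adjusted p = 0.0104), and without replicate 2 it was 0.90 (adjusted p = 0.180).

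**Figure D3:**
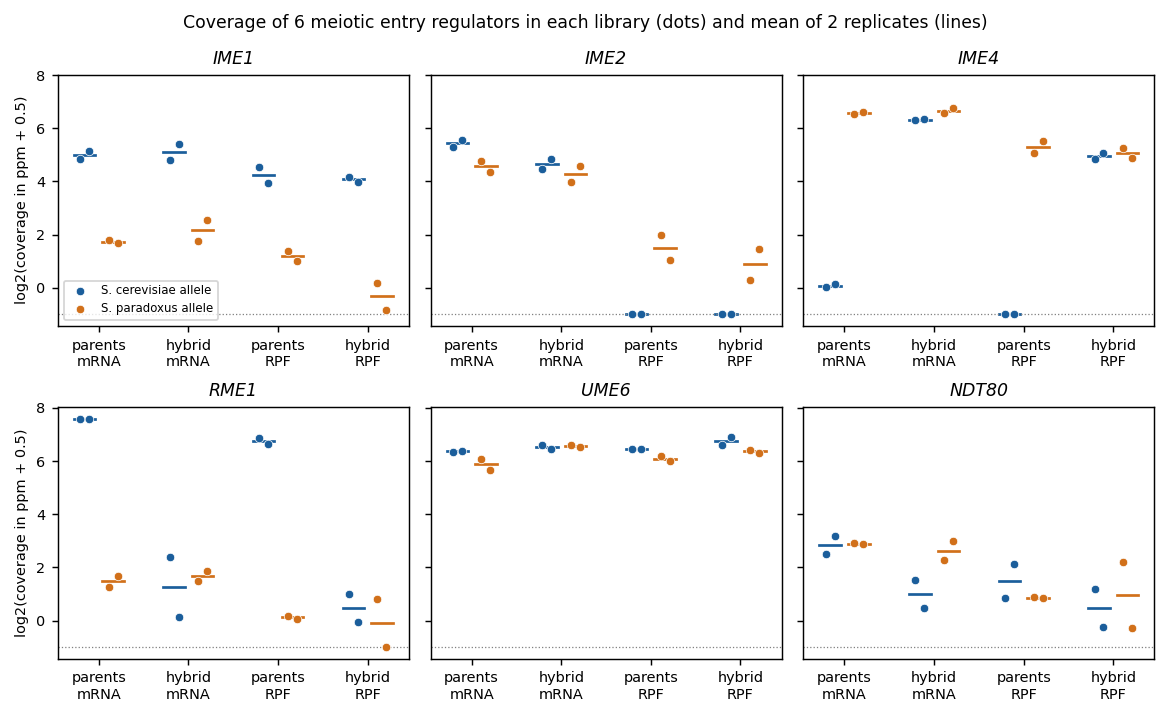
Coverage of the 6 regulators as log2(ppm + 0.5) for the S. cerevisiae (blue) and S. paradoxus (orange) version in parents and hybrid, mRNA and RPF. Dots are single replicates, lines are means of 2, and the dotted line is a coverage of 0. IME4 is low and RME1 is high in the S. cerevisiae parent alone, IME1 is higher in S. cerevisiae in every setting, and IME2 has mRNA but no S. cerevisiae footprints.

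Other genes with the operator letters were compared in the same way, as a description. Of the 23 genes with a match before the start codon 10 were in the table and tested. In S. cerevisiae mRNA from parent to hybrid 4 of these fell, 1 rose and 5 were not called, with a median of -0.08 against -0.13 over all genes, and the share called is close to the 50.3% of all genes. The 2 largest falls were those of RME1 and of NEJ1, a haploid-specific gene of DNA end joining. NEJ1 went from 118 to 8.28 ppm (-3.83 ± 0.40, limma, adjusted p = 2.33e-07). All 10 haploid-specific markers tested fell (median -4.73), and of these NEJ1 alone had the letters in either window. The search took exact letters with a fixed spacing, so variant operators and sites outside the windows would be missed. IVY1 fell by 0.73 ± 0.15 and LSM1 by 0.65 ± 0.16 (adjusted p = 0.000473 and 0.00184), and MCM10, a replication factor, rose by 1.59 ± 0.24 (adjusted p = 1.73e-05). Of the 7 genes with a match after the stop codon 6 were tested, and IME4 had the largest difference, while 2 fell, 1 other rose and 2 were not called, again beside 50.3% of all genes called.

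IME1, the activator at the top of the programme, was higher for S. cerevisiae in every setting, with parents and hybrid alike. Its S. cerevisiae mRNA coverage was 28.3 and 34.9 ppm in the parent and 27.7 and 41.4 ppm in the hybrid. The S. paradoxus coverage was 2.98 and 2.69 ppm in the parent and 2.91 and 5.40 ppm in the hybrid. Every S. cerevisiae column was above every S. paradoxus column, and the ranges of hybrid and parent overlapped within each species.

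The species difference of IME1 mRNA was 2.94 ± 0.29 in the hybrid, or 7.66-fold (limma, adjusted p = 3.17e-07), and 3.26 ± 0.32 between the parents, or 9.59-fold (adjusted p = 6.47e-08). Both held under all 17 alternatives, at 2.80 to 3.06 and 3.05 to 3.48. The trans term was 0.32 ± 0.43 (adjusted p = 0.593, 95% interval -0.58 to 1.23). IME1 did not differ detectably between the hybrid and the S. cerevisiae parent, at 0.11 ± 0.35 (adjusted p = 0.819, 95% interval -0.63 to 0.84), while RME1 differed between these strains as given above.

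Footprints of S. cerevisiae IME1 were at 23.0 and 14.7 ppm in the parent and 17.7 and 15.4 ppm in the hybrid. S. paradoxus footprints were at 2.09 and 1.52 ppm in the parent and at 0.625 and 0.0666 ppm in the hybrid, so that all S. cerevisiae columns were above all S. paradoxus columns in RPF too. The RPF difference between species was 4.41 ± 0.63 in the hybrid (adjusted p = 0.000123) and 3.05 ± 0.56 between the parents (adjusted p = 0.000340). The S. paradoxus footprints in the hybrid were close to or below the amount added, so the size of the hybrid difference depends on that amount. It was 3.73 with 1 ppm added and 5.58 with 0.1 ppm added, and was called with both. Translational efficiency is taken here as the RPF difference minus the mRNA difference, and the hybrid called no member in it, against 1.41% of all genes; at an unadjusted p under 0.05 stood IME1 (1.48 ± 0.69, adjusted p = 0.314) and IME2 (-2.24 ± 0.82, adjusted p = 0.188). Neither passed the adjustment in limma, nor with a shared spread (adjusted p = 0.247 and 0.167). Both sizes depend on the amount added. With 1 ppm added they were 0.93 for IME1 and -1.59 for IME2, and with 0.1 ppm added 2.52 and -4.17, none of them called.

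**Figure D4:**
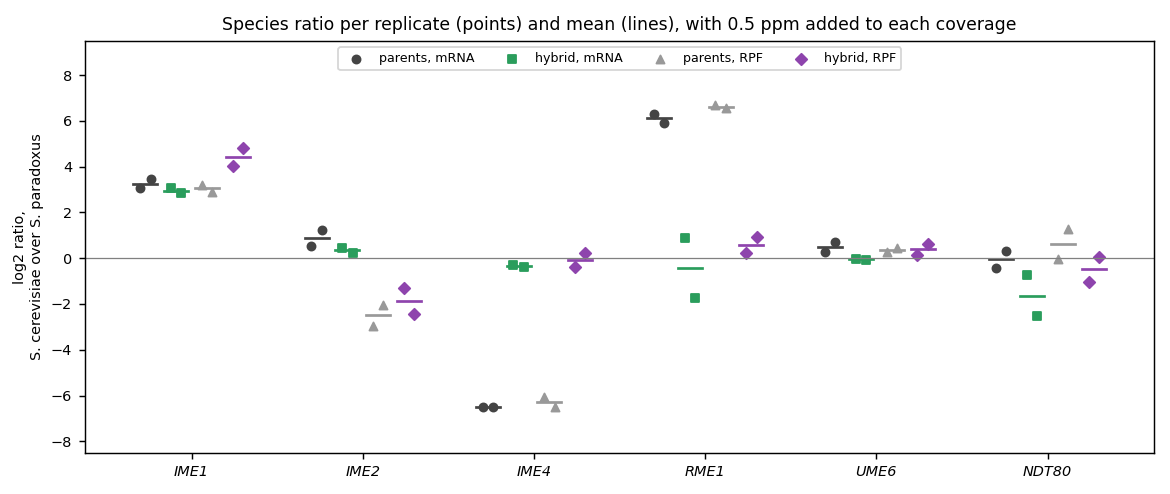
Coverage of S. cerevisiae divided by that of S. paradoxus, on the log2 scale, for each replicate (points) and the mean (lines) in the mRNA and RPF of parents and hybrid, with 0.5 ppm added to each coverage. IME1 stays between about 2.8 and 4.8 in all settings, whereas IME4 and RME1 move from about 6 on either side of 0 in the parents to near 0 in the hybrid.

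Across the members, the cis mRNA difference was called for 2, IME1 (higher in S. cerevisiae) and NDT80 (lower), against 38% of all genes tested. The cis RPF difference was called for 1, IME1, against 12.1%. Between the parents, mRNA was called for 4 (IME1, RME1 and UME6 higher in S. cerevisiae, IME4 lower) against 58.6%, and RPF for 4 (IME1 and RME1 higher, IME4 and IME2 lower) against 35.9%. Parental translational efficiency was called for IME2 alone, against 6.34% of genes. The trans term was called in mRNA for 3 (RME1 and UME6 higher, IME4 lower) against 36% and in RPF for 2 (RME1 and IME4) against 10.9%. Hybrid and parental differences enter the trans term together, so these counts are not independent of each other.

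UME6, the repressor at URS1, was the steadiest member. Its mRNA coverage was 81.0 and 83.0 ppm in the S. cerevisiae parent, 95.8 and 87.6 ppm for that allele in the hybrid, 96.8 and 92.3 ppm for the S. paradoxus allele in the hybrid, and 67.6 and 50.8 ppm in the S. paradoxus parent. The S. paradoxus parent had the lowest mean. Footprints ranged from 63.4 ppm in the S. paradoxus parent to 121 ppm for the S. cerevisiae allele in the hybrid.

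The S. paradoxus allele of UME6 was higher in hybrid mRNA than in its parent by 0.68 ± 0.16 (limma, adjusted p = 0.00437). The parental species difference was 0.48 ± 0.14 (adjusted p = 0.00605), the hybrid difference was -0.04 ± 0.13 (adjusted p = 0.804) and the trans term was 0.53 ± 0.19 (adjusted p = 0.0361). The parental call of UME6 ends with a spread shared over the settings (adjusted p = 0.0629). All 3 calls end without parental mRNA replicate 2, with values of 0.48, 0.26 and 0.30 and adjusted p of 0.0926, 0.298 and 0.373. The trans call of UME6 also ends without either hybrid mRNA replicate, at 0.56 without replicate 1 (adjusted p = 0.0862) and 0.50 without replicate 2 (adjusted p = 0.135), and with a spread shared over the settings (adjusted p = 0.232), median-of-ratios scaling (0.46, adjusted p = 0.0677) or a length offset (0.47, adjusted p = 0.0927). In RPF none of its differences was called.

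IME2, the early kinase, had mRNA without matching footprints. Its mRNA coverage was 39.1 and 46.6 ppm in the S. cerevisiae parent and 21.5 and 28.1 ppm for that allele in the hybrid. The S. paradoxus gene had 27.1 and 19.8 ppm in the parent and 15.5 and 23.6 ppm in the hybrid. In all 4 S. cerevisiae RPF columns IME2 is listed at 0, while the S. paradoxus RPF columns held 3.41 and 1.54 ppm in the parent and 0.737 and 2.25 ppm in the hybrid.

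RPF minus mRNA on the log2 scale, averaged over replicates and with 0.5 ppm added, placed IME2 near the bottom of all genes. In the S. cerevisiae parent 1 of 4544 tested genes stood lower and for that allele in the hybrid 11 did. In S. paradoxus 93 genes stood lower in the parent and 107 in the hybrid, at values of -3.06 and -3.41 against medians of -0.70 and -0.68. IME4 in the S. cerevisiae hybrid allele was at -1.35 and UME6 at 0.23, against a median of -0.67. The annotation shows no other gene overlapping IME2, and its nearest annotated neighbour starts 1373 bases away. Unannotated transcripts would not appear there, and the use of strand is unknown. Sense and antisense coverage of IME2 therefore cannot be told apart either.

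The parental RPF difference of IME2 was -2.50 ± 0.66 (limma, adjusted p = 0.00646), lower in S. cerevisiae. The difference in parental translational efficiency was -3.37 ± 0.76, lower in S. cerevisiae (adjusted p = 0.0118), a value that depends on the amount added because the S. cerevisiae footprints are at 0. The RPF call ended without either parental RPF replicate, at -2.03 without replicate 1 (adjusted p = 0.166) and -2.97 without replicate 2 (adjusted p = 0.0518). The efficiency call ended without the same replicates (-2.90, adjusted p = 0.198, and -3.84, adjusted p = 0.0869) and without parental mRNA replicate 2 (-3.02, adjusted p = 0.0672), and both ended with a length offset (-1.46, adjusted p = 0.0696, and -2.24, adjusted p = 0.0810). IME2 mRNA between the parents was 0.87 ± 0.37 (adjusted p = 0.0538), with adjusted p between 0.0128 and 0.0423 for the parental libraries alone, with no filter, with 1 ppm added and with the length offset.

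NDT80, the activator of middle meiotic genes, was near the limit of detection. Its mRNA coverage was 5.14 and 8.68 ppm in the S. cerevisiae parent, 2.38 and 0.888 ppm for that allele in the hybrid, 6.97 and 6.92 ppm in the S. paradoxus parent and 4.30 and 7.51 ppm for that allele in the hybrid. The S. cerevisiae allele in the hybrid had the lowest mean. Footprints ranged from 0.316 to 4.13 ppm, and replicates of a group differed as much as groups did.

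S. cerevisiae NDT80 fell by 1.85 ± 0.54 from parent to hybrid (limma, adjusted p = 0.00751) and was below the S. paradoxus allele in the hybrid by -1.63 ± 0.47 (adjusted p = 0.0103). Both calls end with a shared spread (adjusted p = 0.0810 and 0.152) and without hybrid mRNA replicate 2 (-1.32, adjusted p = 0.108, and -0.74, adjusted p = 0.411), and the first also without parental mRNA replicate 2 (-1.49, adjusted p = 0.103). The NDT80 trans term, 1.58 ± 0.70, was not called (adjusted p = 0.0847), but was at 2.48 without hybrid mRNA replicate 1 (adjusted p = 0.0198).

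Levels of different genes were compared per kb of unmasked bases. In the mRNA of the S. cerevisiae parent the order of mean coverage was RME1 (229 ppm per kb), UME6 (43.5), IME1 (35.3), IME2 (26.6), NDT80 (4.68) and IME4 (0.365). UME6 (43.0 and 44.0) and IME1 (31.6 and 39.0) were separate in their replicates, as were IME1 and IME2 (24.2 and 28.9). In the hybrid the S. cerevisiae order was IME4 (52.0), UME6 (48.6), IME1 (38.6), IME2 (15.4), RME1 (3.21) and NDT80 (1.11). There UME6 and IME1 were close (46.5 and 50.8 against 31.0 and 46.3), and RME1 and NDT80 overlapped. The median tested gene was at 128 ppm per kb in the parent and 117 in the hybrid, so that RME1 in the parent was the only member above it.

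The authors' deposited table tested 4 of the members for mRNA differences in cis and called 3 of them, where it called 78.05% of the genes it gave a p-value. In the authors' deposited table IME1 and IME2 were called towards S. cerevisiae (adjusted p = 0.000334 and 0.0124) and IME4 towards S. paradoxus (adjusted p = 0.000334). For mRNA in trans the authors' deposited table called all 3 members with a p-value, each at an adjusted p of 0.000244. IME4 was called towards S. paradoxus, and IME2 and UME6 towards S. cerevisiae. The authors' deposited table called 93.93% of the genes with a p-value in that test. For translation in cis, the authors' deposited table marks IME4 and UME6 for the test but gives a p-value for UME6 alone. The authors' deposited table called UME6 towards S. cerevisiae (adjusted p = 0.00329), with 53.95% of the genes with a p-value called. For translation in trans, the authors' deposited table called both members with a p-value towards S. paradoxus, IME4 (adjusted p = 0.0245) and UME6 (adjusted p = 0.000634). There the authors' deposited table called 47.79% of the genes with a p-value. In the limma fits above the cis mRNA differences of IME4 and IME2 were not called (adjusted p = 0.182 and 0.441). The mRNA trans term of IME2 was not called there either (adjusted p = 0.458). Neither the RPF differences nor the translational efficiencies of UME6 were called in those fits, and IME4 was called in trans RPF. The authors' deposited table gives no p-value for RME1 or NDT80 in any of its tests. Although the authors' deposited table marks 35 genes for ploidy and 18 for mating type, 49 in all, none of the 6 members is among them.

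Coding sequence divergence between the species, as the authors' deposited table gives it per position, was largest for RME1 among the members. Its coding sequence differed at 16.5% of positions in the authors' deposited table, above 97.4% of genes, against a median of 10.1%. IME1 followed with 13.0%, and its promoter, at 31.6%, was more divergent than that of 88.1% of the genes with a value in the authors' deposited table (median 20.5%). The promoter of NDT80, at 8.54%, was above 3.50% of them in the authors' deposited table. No promoter value is given for IME4 or RME1 in the authors' deposited table.

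Genes that act with the 6 regulators were taken as lists from general knowledge and compared in S. cerevisiae mRNA from parent to hybrid, where the median of all genes was -0.13 and 50.3% were called. Median-of-ratios scaling moved that median by 0.11 and a length offset by 0.17. Of 24 regulators of IME1, 6 rose, 7 fell and 11 were not called (median -0.13); median-of-ratios scaling gave 8 and 5, and the length offset 7 and 3. YHP1, a homeobox repressor of IME1, fell by 1.47 ± 0.15 (limma, adjusted p = 1.36e-07), whereas SWI4, a cell cycle transcription factor, rose by 0.94 ± 0.17 (adjusted p = 0.000148). TUP1, a general co-repressor, rose by 0.88 ± 0.12 (adjusted p = 4.32e-06) and RIM15, a nutrient-sensing kinase, by 0.76 ± 0.19 (adjusted p = 0.00232).

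Of the partners of Ime4 in mRNA methylation, 2 of 5 were tested and KAR4 fell by 1.77 ± 0.19 (limma, adjusted p = 5.16e-07), while IME4 itself rose. KAR4 is also a transcription factor of the mating response. Of the co-repressors of Ume6 and Ndt80 target genes, 4 of 7 were tested and SUM1, the repressor that competes with Ndt80, rose by 0.46 ± 0.14 (adjusted p = 0.0115).

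The target programmes were weakly covered, and fewer of their tested genes were called than the 50.3% of all genes, where 1340 were lower and 945 higher. Of the 17 early meiotic genes that the table holds, 10 were tested, and 3 fell and none rose (median -0.71), namely REC104 (-1.44 ± 0.54, adjusted p = 0.0337), HOP1 (-1.37 ± 0.53, adjusted p = 0.0363) and SPO16 (-0.91 ± 0.34, adjusted p = 0.0332) in limma. All 3 act in recombination or in the pairing of chromosomes. Of the 23 middle and late genes that it holds, 13 were tested, and 4 fell and none rose (median -0.28), namely DIT2 (-1.49 ± 0.60), MPC54 (-1.42 ± 0.46), CDA1 (-1.13 ± 0.33) and SPO73 (-1.13 ± 0.30), which act in spore formation. The mean coverage of these 7 genes over all columns was 3.02 to 20.9 ppm. The filter of 3 ppm was on that mean, so a gene near it can pass only through the group where it is high. With median-of-ratios scaling none of the early genes was called (median -0.59, all genes -0.01) and DIT2 was lost among the later genes, while the length offset left REC104 alone among the early genes and 3 of the later genes, again without DIT2.

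In the trans term for mRNA, IME1 regulators had 4 higher and 5 lower of 24 (median 0.16, all genes 0.05, 36% called). MSN4, a stress transcription factor, was at -1.66 ± 0.21 (limma, adjusted p = 4.79e-06) and NRG1, a glucose-responsive repressor, at -1.23 ± 0.28 (adjusted p = 0.00254). DFG16, a pH sensor, was at -0.94 ± 0.27 (adjusted p = 0.0115) and YHP1 at 1.15 ± 0.17 (adjusted p = 3.55e-05). Outside the IME1 regulators, KAR4 was at 1.25 ± 0.25 (adjusted p = 0.000731), REC104 at 2.14 ± 0.80 (adjusted p = 0.0422), DIT2 at 2.08 ± 0.76 (adjusted p = 0.0390) and SPS2 at -3.75 ± 1.08 (adjusted p = 0.0110), and no co-repressor was called. Median-of-ratios scaling ended the trans calls of REC104 and DIT2.

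**Figure D5:**
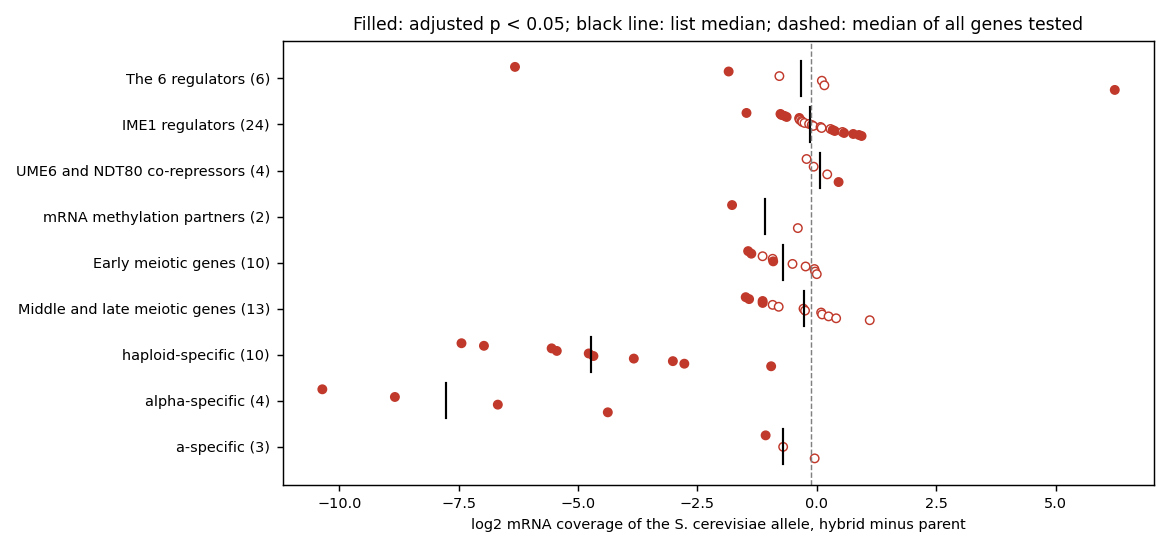
Difference in log2 mRNA coverage of the S. cerevisiae allele between hybrid and parent for the 6 regulators, the lists of related genes and the cell type markers, with the number tested in parentheses. Filled points have an adjusted p under 0.05, black lines are list medians and the dashed line is the median of all genes tested. All 10 haploid-specific genes tested, which were listed because a/alpha cells repress them, fell, and IME4 is the only point above 2. The fall of RME1 lies within their wide range, -7.44 to -0.96, which is a description and not a test.

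Genes with the most similar pattern were sought by Pearson correlation of log2(ppm + 0.5) over the 16 columns, which include mRNA and RPF of both species and share libraries. IME4 was closest to DBP10 (0.976), NDE1 (0.975) and EFM1 (0.957). RME1 was closest to ICS2 (0.959), MF(ALPHA)2 (0.949), the minor alpha-factor gene, and STE3 (0.948), the a-factor receptor of alpha cells. IME4 and RME1 correlated at -0.875 with each other over the same 16 columns.

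IME1 was closest to YJR096W (0.958), the table's unnamed gene Scer_9.201 (0.945) and ICL2 (0.942). IME2 was closest to CHL1 (0.980), PSO2 (0.976) and FAR8 (0.973), UME6 to AZF1 (0.867), URA4 (0.822) and GDA1 (0.780), and NDT80 to THI4 (0.959), SEC62 (0.878) and DCG1 (0.876). By rank correlation none of these genes was among the 3 closest to IME4, IME1, IME2 or RME1, and IME4 and RME1 correlated at -0.278 over the 16 columns.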

How the data were processed

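The members and the gene lists were chosen with earlier results of these data known. The deposited table held total base-level coverage per gene and species (signal), which the authors took over unmasked bases, with S. paradoxus multiplied by the authors by a factor per replicate to equal totals, per the file's description. That factor was 2.13 and 0.417 in parental RPF and 0.859 to 1.01 elsewhere, and it removes differences in total output between the species. CASAVA 1.8.2 and Bowtie 0.12 are named in the submitters' processing notes, while genome builds and the use of strand are not given in the sources used here. Adjusted p-values were deposited by the authors from their own tests. Sequence divergence was deposited by the authors as a fraction. Parental RPF came from mixed parents, replicate 2 from 2 lanes, and which parental mRNA replicate was the mixed library was not given. A further 24 columns of values were not used.

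Coverage was scaled to ppm of the column total, 0.5 was added and log2 taken, and genes with a mean of at least 3 ppm were tested. With limma 3.58.1 (R 4.3.3), a mean per setting was fitted to the replicate log2 ratios of S. cerevisiae over S. paradoxus and, for hybrid minus parent, to each species' levels. Each setting was weighted by its own spread, and the spread followed mean coverage, with 4 residual degrees of freedom. Two-sided p-values were adjusted over 4544 genes (Benjamini-Hochberg) and called under 0.05. Only the fit of the species ratios was tried on simulated data, with independent normal noise, and its outcome is not given here. The hybrid minus parent fits were not simulated. Depth in reads is unknown, so no counting interval is given.

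The text names all 6 members, the 3 genes of highest Pearson correlation with each, and up to 4 called genes of the largest size per list. The comparison of other genes with operator letters, the counts at an unadjusted p and the list counts under other scalings were added after the data were seen. Alternatives were a shared spread, 1 and 0.1 ppm added, median-of-ratios scaling, no filter and a mean of at least 10 ppm, a length offset, hybrid or parental libraries alone, each replicate left out and the replicate number of the hybrid libraries as a block. Coordinates and sequences are from the NCBI RefSeq copy of S. cerevisiae R64, matched by systematic name for 6 of 6 members.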

Additional observations from a re-analysis of the deposited data

Results flagged for a closer look

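Each result given here is a difference that itself differed between strains or between mRNA and RPF past the test's threshold, which is why it is singled out. The trans term, the species difference between the parents minus that in the hybrid, was -6.15 in mRNA and -6.18 in RPF for IME4, and 6.53 in mRNA and 6.04 in RPF for RME1. For UME6 the mRNA trans term was 0.53. For IME2 the parental species difference in RPF minus that in mRNA was -3.37, with S. cerevisiae footprints listed at 0. The summed haploid-specific markers were high in the S. cerevisiae parent alone, as RME1 was, while IME4 was low there. The part of these markers in the results was not tested.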

How the results depend on the processing

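The count of called members moved by over 1.5 times in these comparisons. For cis mRNA (2) the count was 1 with a shared spread, a mean of at least 10 ppm or the replicate block, for cis RPF (1) it was 2 with a shared spread, 0.1 ppm added or the block, and for S. paradoxus RPF hybrid minus parent (0) it was 1 with the same 3 settings. For parental translational efficiency (1) it was 0 with the length offset. It moved by 1 for parental mRNA (4), to 3 with a shared spread and to 5 with 1 ppm added, no filter, the length offset, the parental libraries alone or the block; for parental RPF (4), to 3 with the length offset; for trans mRNA (3), to 2 with a shared spread, median-of-ratios scaling, the length offset or the block; and for S. cerevisiae mRNA hybrid minus parent (3), to 2 with a shared spread or a mean of at least 10 ppm, which leaves NDT80 untested. The block lost NDT80 in cis mRNA and UME6 in trans mRNA. It gained IME2 in cis RPF and parental mRNA and IME1 in S. paradoxus RPF, and it changed no other call of a member. Over all genes the block called 488 in cis mRNA, against 1727 in the main fit, and 1093 in cis RPF, against 552. Deviations of the same-numbered hybrid libraries correlated at 0.0189 in the ratio, 0.110 in S. cerevisiae levels and 0.0849 in S. paradoxus levels. Whether these libraries share a culture cannot be told from these correlations.

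With 1 replicate left out, which assumes that the lone library varies like the others, counts ran from 1 to 3 for cis mRNA, 0 to 1 for parental translational efficiency, 0 to 1 for S. paradoxus mRNA hybrid minus parent, 1 to 2 for trans RPF, 3 to 5 for parental mRNA, 3 to 4 for parental RPF, 2 to 3 for trans mRNA and 2 to 3 for S. cerevisiae mRNA hybrid minus parent; the other comparisons kept their count. The calls of IME1 in cis and between the parents, of IME4 and RME1 in S. cerevisiae hybrid minus parent and in trans mRNA, and of IME4 in trans RPF held under every alternative run.

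Uncalled values changed sign. With median-of-ratios scaling parental translational efficiency was -0.26 for IME4, 0.019 for IME1 and 0.0094 for UME6, and trans RPF was 0.042 for UME6. With 0.1 ppm added, parental translational efficiency was -1.41 for IME4 and S. paradoxus RPF hybrid minus parent was -0.092 for NDT80. Over the single replicates left out, the ranges that crossed 0 were as follows. For IME1 they were -0.18 to 0.39 in S. cerevisiae mRNA and -0.46 to 0.16 in S. cerevisiae RPF hybrid minus parent, and for IME2 -0.57 to 0.030 in S. paradoxus mRNA. For IME4 they were -0.40 to 0.21 in cis RPF, -0.057 to 0.55 in cis and -0.0099 to 0.44 in parental translational efficiency, and -0.44 to 0.0055 in S. paradoxus RPF. For RME1 they were -1.74 to 0.90 in cis mRNA, -0.32 to 2.32 in cis translational efficiency and -1.13 to 0.68 in S. paradoxus RPF. For UME6 they were -0.34 to 0.10 in parental translational efficiency and -0.26 to 0.20 in trans RPF. For NDT80 they were -1.03 to 0.053 in cis RPF, -0.41 to 0.31 in parental mRNA, -0.037 to 1.29 in parental RPF, -0.63 to 0.11 in S. paradoxus mRNA and -1.15 to 1.35 in S. paradoxus RPF. The causes were not tested. Coverage was at most 8.68 ppm for NDT80 in every column, at most 4.76 ppm for RME1 outside the S. cerevisiae parent and 0 for IME2 in S. cerevisiae RPF.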
